A study of Arabidopsis thaliana with 28 samples.

Results

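BAM7-N_Ox plants were compared with BAM8-N_Ox plants, on 2 arrays each, 4 of the 28 arrays of the series. These arrays were taken by their genotype labels alone. The difference between these lines asks whether the N forms of 2 related nuclear proteins leave the same transcript pattern in shoots. The other groups used are BAM7-DNA_Ox, BAM8-DNA_Ox, BAM7-Cat_Ox, BAM8-Cat_Ox, BAM7-Lig_Ox, BAM8-Lig_Ox, the unsuffixed lines BAM7_Ox and BAM8_Ox, the double mutant bam7 bam8, its single mutants bam7 and bam8, and the wild type, again with 2 arrays each. All plants were Arabidopsis thaliana Col-0, were 3 weeks old and received no treatment. They were grown at 20 °C with a light period of 12 h, and shoots were frozen 4 h after lights on. One replicate is a pool of 14 plants, and the labels call the replicates biological. The labels define neither Ox nor the suffixes. They also do not give the promoter, the number of transformed lines behind a group, or whether the Ox plants carry the native genes. Ox is read here as overexpression, as a name only.

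BAM7 and BAM8 are nuclear proteins that join a DNA-binding domain of the BZR1 type, known from brassinosteroid-responsive transcription factors, to a domain that resembles the starch-degrading enzyme beta-amylase. They are known to act on gene expression rather than on starch, and in shoots they are linked to growth and to brassinosteroid-responsive genes. The series addresses what the enzyme-like domain contributes to finding DNA sequences and activating transcription.

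Gene names for the probe sets were not used here. Probe sets are therefore given by their IDs, the transcripts of BAM7 and BAM8 could not be picked out to check the labels, and the tissue was not checked against shoot markers. Array medians lay between 23.5 and 25.8 intensity units, and the 4 arrays of the N lines fell within that range. Replicate arrays correlated across probe sets with r = 0.997 in BAM7-N_Ox and r = 0.996 in BAM8-N_Ox, although probe sets are not independent replicates. A gap of over 2-fold between replicates was seen at 14 probe sets in BAM7-N_Ox and at 24 in BAM8-N_Ox, against 6 to 254 in the other groups, with the 254 in BAM7-Cat_Ox. An array of one N line differed from an array of the other by more than 2-fold at 102 to 154 probe sets, over the 4 possible pairs. Precision is limited by having 2 arrays a group: a log2 difference had a median SE of 0.14. In shoot pools, fewer cells of a type and less RNA per cell cannot be told apart.

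Transcripts that separated the N lines were split almost evenly by direction. At an adjusted p under 0.05, 96 probe sets were higher and 89 lower in BAM7-N_Ox than in BAM8-N_Ox, 185 in all or 0.813% of the 22746 tested, and 1787 had an unadjusted p under 0.05. Among the called probe sets, 36 higher and 28 lower probe sets differed by 2-fold or more. The called differences ran from -2.41 to 3.88 on the log2 scale, and the smallest called difference was 0.39 in size. All 185 had arrays that did not overlap between the lines, which also held for 38.7% of all probe sets. The higher probe sets had a median level of 5.15 over all arrays (log2 intensity, quartiles 3.49 and 6.94) and the lower ones 6.31 (quartiles 4.84 and 7.75), beside 4.60 for all probe sets. At least 1 array on the dimmer side of the difference lay under its own 25th percentile for 15 of the 96 and 7 of the 89. Such a level may be background, and the difference is then a lower bound.

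These calls rest on a spread pooled over 14 groups: when limma was fitted to the 4 arrays alone, which leaves 2 residual degrees of freedom, 0 probe sets passed, although 2246 had an unadjusted p under 0.05. Array weights gave 468 calls, all 185 among them. The count was 92 without BAM7-N_Ox replicate 2 and 89 without BAM8-N_Ox replicate 1. Without BAM7-N_Ox replicate 1 the split was 91 higher and 46 lower.

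**Figure D1:**
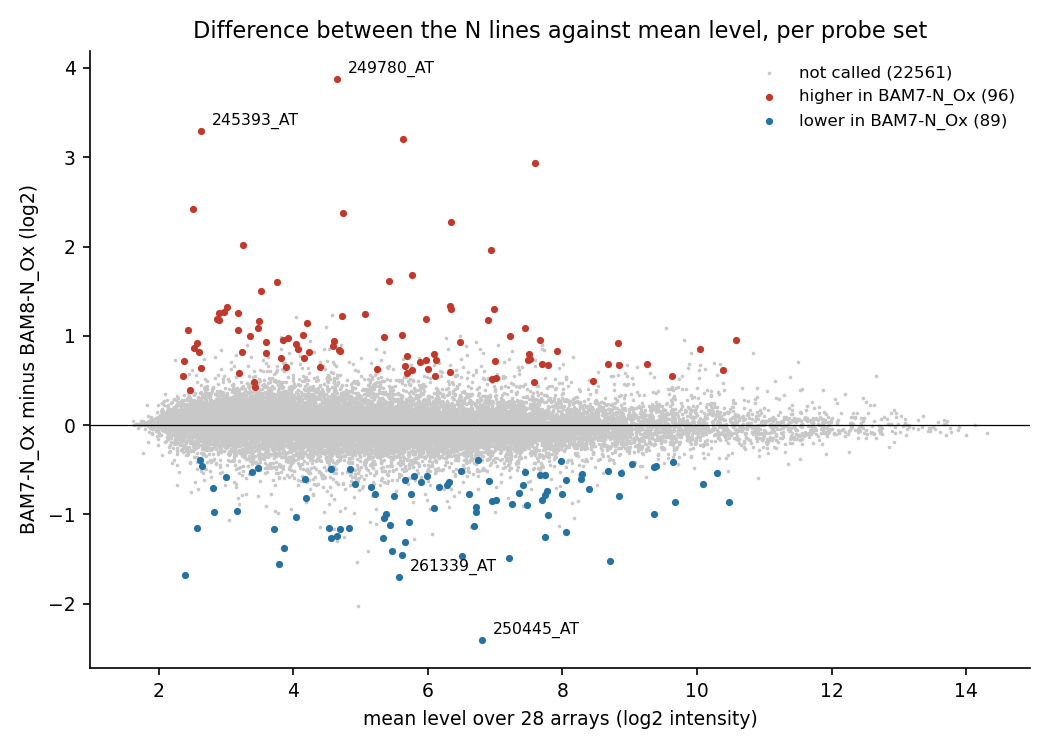
Each point is a probe set, with its mean level over 28 arrays on the x axis (log2 intensity) and BAM7-N_Ox minus BAM8-N_Ox on the y axis (log2). The 96 red points (higher in BAM7-N_Ox) and 89 blue points (lower) are spread over the whole range of levels, and differences of 2-fold or more number 36 upward and 28 downward.

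The largest difference between the N lines belonged to a probe set that separates all BAM8 lines from all BAM7 lines. Probe set 249780_AT stood at 6.55 and 6.66 log2 intensity in BAM7-N_Ox, against 2.36 and 3.10 in BAM8-N_Ox. Its BAM7-N_Ox levels lay at the 75.2 and 76.2 percentile of their arrays, against 10.4 and 30.8 in BAM8-N_Ox, so that the lower side may be background. The difference was 3.88 (SE 0.22, adjusted p 1.66e-08), a 14.7-fold higher level. In pairs of groups that share no array with the N lines, the same probe set was higher by 3.98 in BAM7_Ox than in BAM8_Ox, by 4.22 between the DNA lines, by 3.97 between the Cat lines, by 4.01 between the Lig lines and by 4.04 between bam7 and bam8 (adjusted p at most 1.91e-08). Its group means lay between 5.62 and 6.61 in the 8 groups that include all BAM7 lines, bam7, bam7 bam8 and wild type, against 2.30 to 2.73 in the 5 groups of BAM8 overexpression and bam8. The difference between the N lines did not differ detectably from that between the unsuffixed lines (-0.10, 95% interval -0.77 to 0.56, adjusted p 0.92).

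The next largest difference had another pattern, with BAM7-N_Ox alone standing apart. Probe set 245393_AT stood at 5.28 and 5.90 in BAM7-N_Ox, against 2.26 and 2.32 in BAM8-N_Ox. On the 24 arrays of the other groups it ranged from 2.18 to 3.37 with a median of 2.36. The difference was 3.30 (SE 0.25, adjusted p 1.02e-06), 9.84-fold, and both BAM8-N_Ox arrays lay under the 25th percentile, so this too may be a lower bound. Between the unsuffixed lines 245393_AT gave -0.08 (adjusted p 0.917), and the difference of the 2 differences was 3.38 (SE 0.35, adjusted p 6.57e-05).

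Among the probe sets lower in BAM7-N_Ox, the largest differences were also those of BAM7-N_Ox falling away from the series. Probe set 250445_AT stood at 5.26 and 4.61 in BAM7-N_Ox, against 7.06 and 7.62 in BAM8-N_Ox, and between 5.70 and 8.09 on the 24 other arrays. The difference was -2.41 (SE 0.35, adjusted p 0.00139), a 5.30-fold lower level. Probe set 261339_AT stood at 4.01 and 3.23 in BAM7-N_Ox, against 5.10 and 5.55 in BAM8-N_Ox, and between 4.79 and 6.62 on the other 24 arrays. The difference was -1.70 (SE 0.26, adjusted p 0.00207), and without BAM7-N_Ox replicate 2 it was -1.31 and no longer passed (adjusted p 0.0627). For both probe sets the BAM7-N_Ox arrays lay below every other array of the series. Whether these differences exceed those between the unsuffixed lines was not established, with -1.89 (adjusted p 0.127) for 250445_AT and -1.62 (adjusted p 0.0633) for 261339_AT. When limma was fitted to the 4 arrays of the N lines alone, the smallest adjusted p of these named probe sets was 0.149 and none of the 4 was called. An offset of 16 intensity units before the log2 step, which shrinks differences between dim values, gave 2.32 for 249780_AT, 1.63 for 245393_AT and -0.98 for 261339_AT, all 3 still called.

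**Figure D2:**
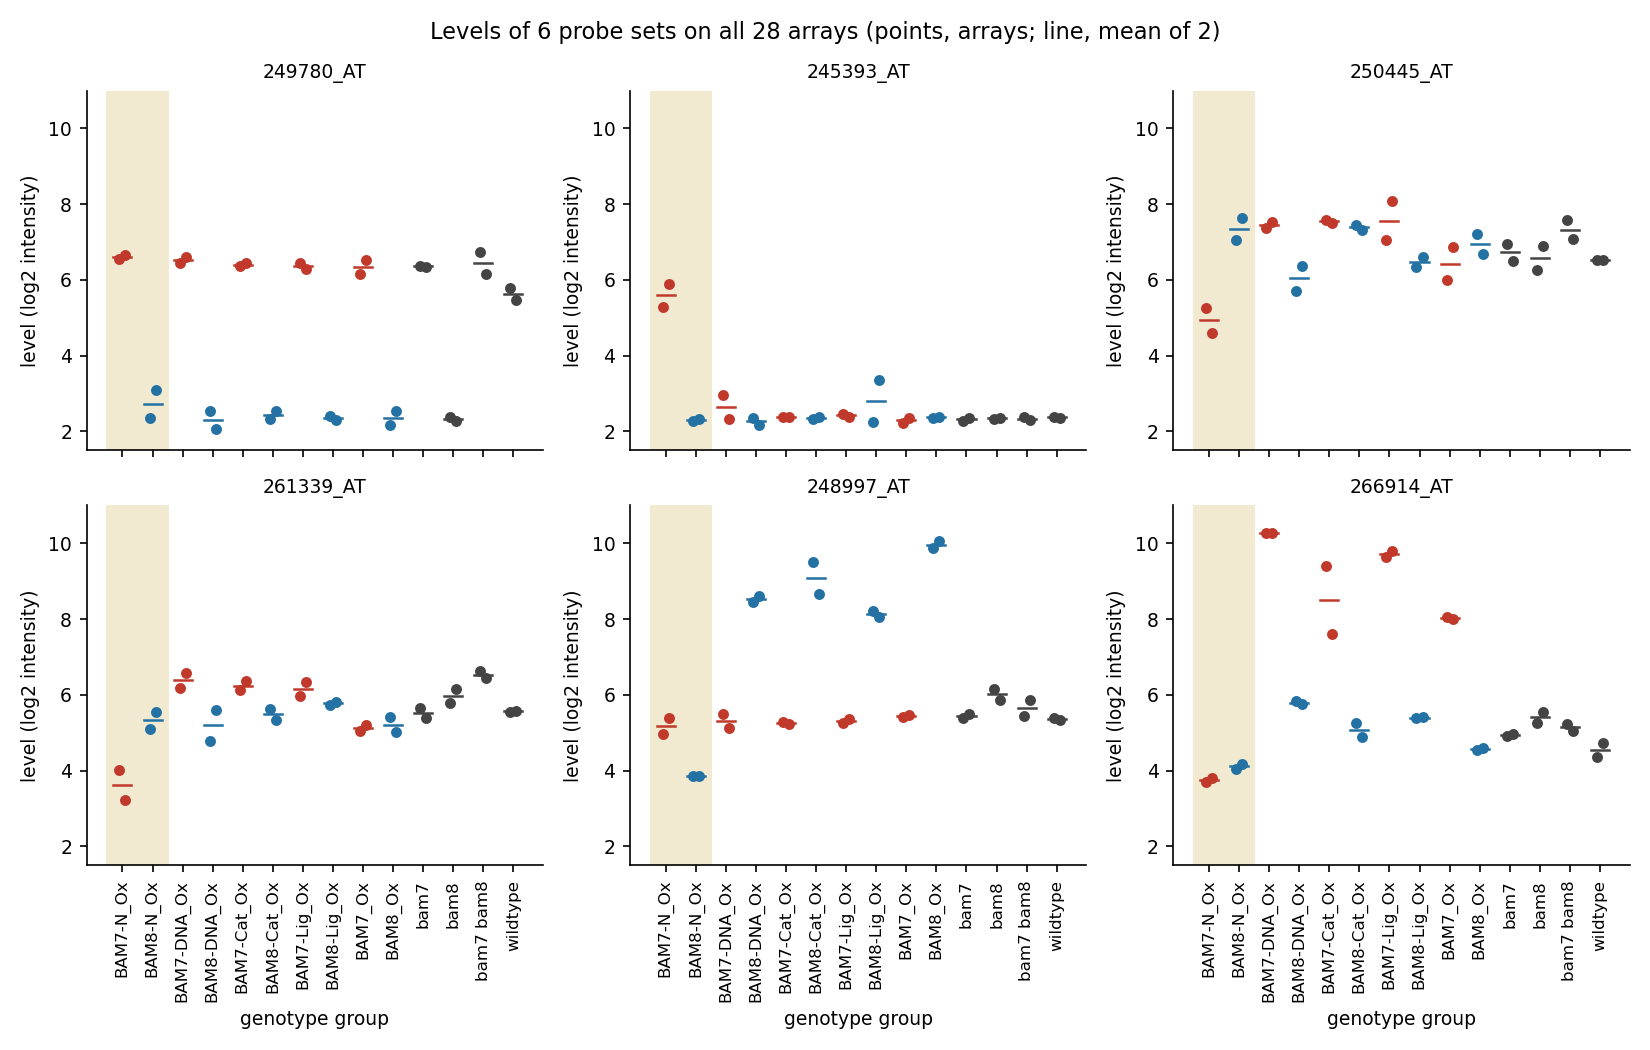
Levels (log2 intensity) of 6 probe sets in the 14 groups, 1 point per array and a line at the mean of 2, with BAM7 lines in red, BAM8 lines in blue, mutants and wild type in grey, and the N lines shaded. In 249780_AT the BAM8 lines and bam8 sit at 2.30 to 2.73, in 245393_AT, 250445_AT and 261339_AT the BAM7-N_Ox arrays stand apart, and 248997_AT and 266914_AT are high in the BAM8 and BAM7 lines other than the N lines.

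Set against the other 12 groups, BAM7-N_Ox held the extreme level for most of the 185 probe sets. Since the calls were made on these arrays, the following counts are a description with no test. BAM7-N_Ox had the highest mean of all 14 groups for 74 of the 96 higher probe sets (77.1%, beside 7.95% of all probe sets), and BAM8-N_Ox had the lowest mean for 29 of them (30.2%, beside 12.1%). Of the 89 lower probe sets, BAM7-N_Ox had the lowest mean for 53 (59.6%, beside 6.79%) and BAM8-N_Ox the highest for 36 (40.4%, beside 9.57%). The N lines were at opposite ends for 13 of the 96 and 8 of the 89, beside 0.589% of all probe sets, and neither was at an end for 6 and 8, beside 64.0%. Relative to the median of the 12 other groups, the 96 higher probe sets stood at a median of 0.70 in BAM7-N_Ox and -0.09 in BAM8-N_Ox. The 89 lower probe sets stood at -0.50 in BAM7-N_Ox and 0.32 in BAM8-N_Ox, while all probe sets had medians of -0.02 and -0.03 in the same lines.

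**Figure D3:**
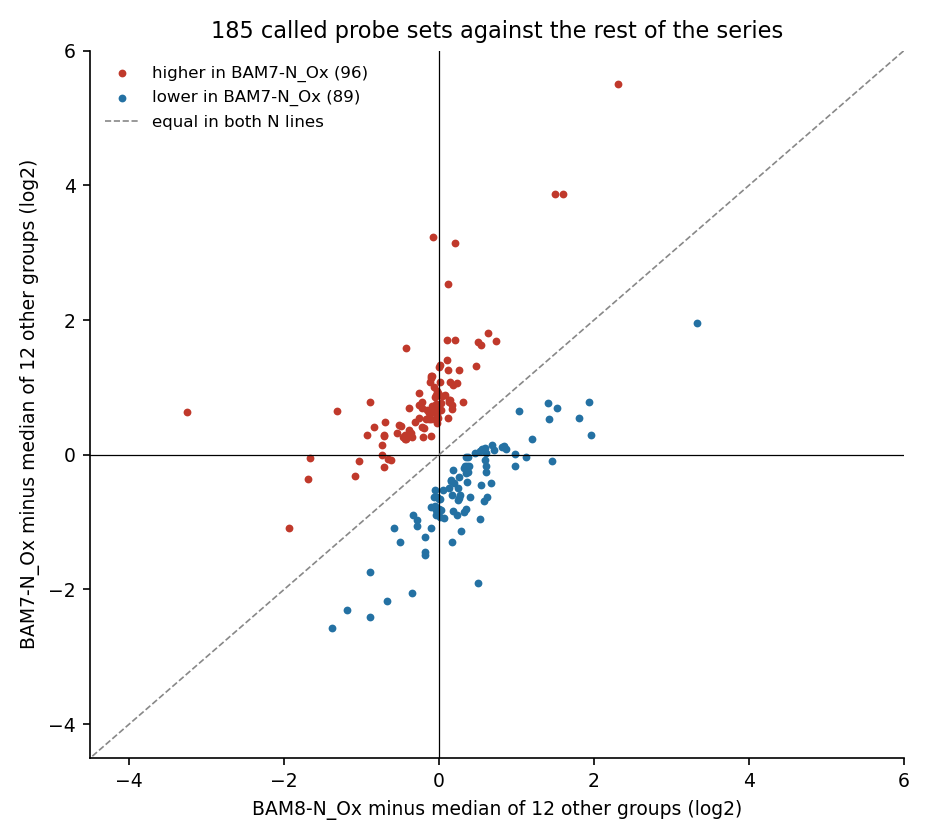
Position of the 185 called probe sets in BAM7-N_Ox (y axis) and BAM8-N_Ox (x axis), each as the group mean minus the median of the 12 other groups (log2), with the dashed line marking equal positions. The 96 red points centre at 0.70 on the y axis and -0.09 on the x axis, and the 89 blue points at -0.50 and 0.32.

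The called probe sets were then read in 5 other comparisons of BAM7 with BAM8, whose differences use no array of the N lines. Their tests share the spread pooled over all 28 arrays with the main test. A probe set with a small spread is more readily called in each, so these calls are not independent of the main ones. Most were not called in any of them: 79 of the 96 higher (82.3%) and 75 of the 89 lower probe sets (84.3%), beside 97.9% of all probe sets. Of the 96, 11 were called in the same direction at least once and 6 in the opposite direction, and of the 89 these numbers were 10 and 4. The share of all probe sets called in a given direction at least once was not counted, so these counts are a description only. Shares for each comparison are given below. Only 249780_AT was called in the same direction in all 5. Between BAM7_Ox and BAM8_Ox, 1 of the 96 was called higher (background 0.127%) and 2 lower (background 0.246%), with a median difference of -0.03. The 89 gave 0 higher and 5 lower calls there, with a median of -0.10, beside -0.04 for all probe sets. Between BAM7-DNA_Ox and BAM8-DNA_Ox, the 96 gave 4 higher and 1 lower calls and the 89 gave 2 higher and 0 lower calls (background 0.237% and 0.11%). Between the Cat lines, the 96 gave 7 higher and 5 lower calls and the 89 gave 2 higher and 8 lower calls (background 0.55% and 0.963%). Between the Lig lines, the 96 gave 4 higher and 2 lower calls and the 89 gave 0 and 1 (background 0.11% and 0.106%). Between bam7 and bam8, the 96 gave 1 higher call, that of 249780_AT, and 0 lower calls, and the 89 gave none (background 0.00879% and 0.0132%). The medians of the 96 in these 5 comparisons ran from -0.03 to 0.08 and those of the 89 from -0.10 to 0.03, beside a median size of 0.84 for the 185 between the N lines.

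**Figure D4:**
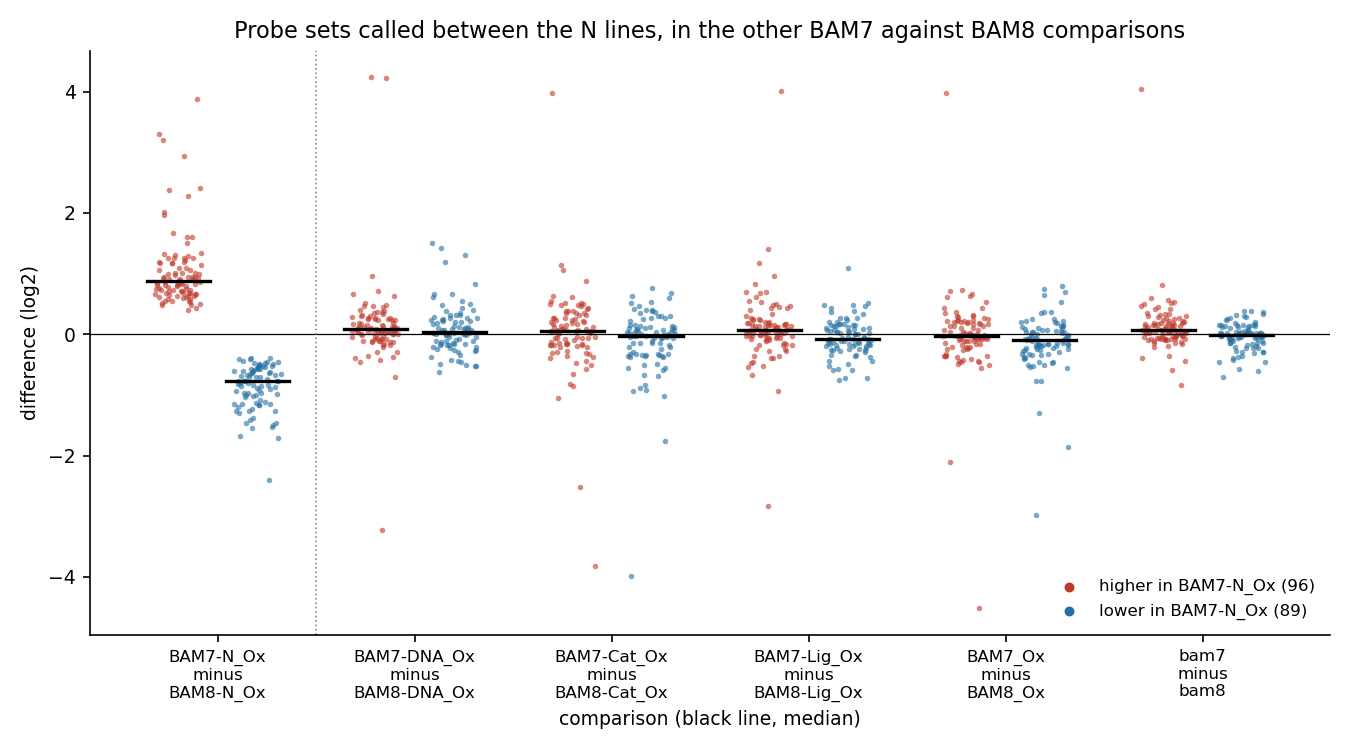
Differences (log2, y axis) of the 96 probe sets higher (red) and 89 lower (blue) in BAM7-N_Ox, in the comparison that called them (left of the dotted line) and in 5 comparisons with no array in common, with medians as black lines. Outside the N lines the medians lie between -0.10 and 0.08, and the red point near 4 in every comparison is 249780_AT.

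Against wild type, each N line differed at more probe sets than the N lines did from each other. In BAM7-N_Ox, 401 probe sets were above and 275 below their wild type level (2.97% of those tested), and in BAM8-N_Ox 478 were above and 369 below (3.72%). These comparisons share the wild type arrays, so the lines are compared here only by the direct test. The counts were 991 and 1469 without wild type replicate 2 and 320 and 286 without wild type replicate 1, and 135 and 3 when only the groups compared were fitted. Without wild type replicate 2, BAM8-N_Ox was lower at more probe sets (792) than it was higher (677). Leaving out replicate 1 or 2 of BAM7-N_Ox gave 415 and 270, and leaving out replicate 1 or 2 of BAM8-N_Ox gave 250 and 442.

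The largest rise in BAM7-N_Ox was that of 257365_X_AT, an ID whose X marks probes that may also match other transcripts. It stood at 10.74 and 10.38 in BAM7-N_Ox and at 7.03 and 7.68 in BAM8-N_Ox, against 6.05 and 5.86 in wild type. It was above wild type by 4.60 in BAM7-N_Ox (SE 0.30, adjusted p 5.43e-08) and by 1.40 in BAM8-N_Ox (SE 0.30, adjusted p 0.0138), and BAM7-N_Ox exceeded BAM8-N_Ox by 3.21 (adjusted p 1.27e-05). Probe set 247882_AT stood at 9.38 and 9.85 in BAM7-N_Ox and at 7.17 and 7.51 in BAM8-N_Ox, against 5.94 and 5.52 in wild type. Its rise was 3.89 in BAM7-N_Ox (SE 0.24, adjusted p 3.49e-08) and 1.61 in BAM8-N_Ox (adjusted p 0.000975), with 2.27 between the lines (adjusted p 5.69e-05). This probe set was also high in some other BAM8 lines, with means of 7.97 in BAM8_Ox and 8.50 in BAM8-Cat_Ox. Its BAM8-N_Ox minus BAM8_Ox value was -0.63 and was not called (adjusted p 0.261). For both probe sets all arrays of the 3 groups were separated, in the order BAM7-N_Ox, BAM8-N_Ox and wild type.

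Falls in BAM7-N_Ox showed the same order turned round. Probe set 254862_AT stood at 5.95 and 5.65 in BAM7-N_Ox and at 7.53 and 6.46 in BAM8-N_Ox, against 8.46 and 8.27 in wild type. It fell by 2.57 in BAM7-N_Ox (SE 0.25, adjusted p 9.31e-06) and by 1.37 in BAM8-N_Ox (adjusted p 0.00484), and the lines differed by -1.19 (adjusted p 0.027). Probe set 251524_AT stood at 6.83 and 6.38 in BAM7-N_Ox and at 8.50 and 7.77 in BAM8-N_Ox, against 8.84 and 8.82 in wild type. It fell by 2.22 in BAM7-N_Ox (SE 0.25, adjusted p 3.89e-05), its value in BAM8-N_Ox was -0.70 (adjusted p 0.128), and the lines differed by -1.53 (adjusted p 0.00396). For neither probe set was BAM8-N_Ox minus BAM8_Ox called. The values were -0.79 (adjusted p 0.154) for 254862_AT and -0.14 (adjusted p 0.798) for 251524_AT, with BAM8_Ox means of 7.78 and 8.28.

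In BAM8-N_Ox the largest rise was that of 264514_AT, a probe set also high in some other BAM8 lines, with means of 5.81 in BAM8_Ox and 6.93 in BAM8-Cat_Ox. BAM8-N_Ox minus BAM8_Ox was 0.48 and was not called (adjusted p 0.545). It stood at 4.67 and 5.17 in BAM7-N_Ox and at 6.21 and 6.39 in BAM8-N_Ox, against 3.15 and 2.83 in wild type. It was above wild type by 1.93 in BAM7-N_Ox (adjusted p 0.000992) and by 3.30 in BAM8-N_Ox (SE 0.30, adjusted p 5.28e-06), both of which may be lower bounds because a wild type array lay under its 25th percentile. BAM7-N_Ox was lower than BAM8-N_Ox, at -1.37 (adjusted p 0.0357). Probe set 260560_AT stood at 7.67 on each BAM7-N_Ox array and at 8.04 and 7.83 in BAM8-N_Ox, against 5.58 and 5.64 in wild type. It rose by 2.06 in BAM7-N_Ox (adjusted p 0.00388) and by 2.33 in BAM8-N_Ox (SE 0.38, adjusted p 0.00165), and no difference between the lines was detected (-0.27, 95% interval -1.06 to 0.52). Probe set 249780_AT went opposite ways, at 0.99 in BAM7-N_Ox (SE 0.22, adjusted p 0.0188) and -2.89 in BAM8-N_Ox (SE 0.22, adjusted p 5.92e-07). Beside it, the largest fall in BAM8-N_Ox was that of 256527_AT, which stood at 9.18 and 9.24 in BAM7-N_Ox and at 8.52 and 8.19 in BAM8-N_Ox, against 10.46 and 10.42 in wild type. It fell by 1.23 in BAM7-N_Ox (adjusted p 7.78e-05), and it fell by 2.08 in BAM8-N_Ox (SE 0.15, adjusted p 2.08e-07), with 0.85 between the lines (adjusted p 0.00613). The falls of 249780_AT and 256527_AT were not called when BAM8-N_Ox and wild type were fitted alone (adjusted p 0.0821 and 0.0608). With the offset of 16, the values of 264514_AT and 249780_AT in BAM8-N_Ox against wild type were 1.98 and -1.52.

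Each N line was also set against the unsuffixed line of its own protein. The differences of this pair of comparisons have no array in common, but their tests share the pooled spread, so the overlap of their calls is a description. BAM7-N_Ox was higher than BAM7_Ox at 348 probe sets (1.53%) and lower at 355 (1.56%). BAM8-N_Ox was higher than BAM8_Ox at 221 (0.972%) and lower at 160 (0.703%). The higher lists shared 77 probe sets, 22.1% of the BAM7 list and 34.8% of the BAM8 list, and the lower lists shared 39, 11% and 24.4%. Only 1 probe set was called higher for BAM7 and lower for BAM8, and 0 the other way. The 348 probe sets higher in BAM7-N_Ox had a median of 0.31 in BAM8-N_Ox minus BAM8_Ox, and the 355 lower ones had a median of -0.13. In the other direction, the 221 probe sets higher in BAM8-N_Ox had a median of 0.35 in BAM7-N_Ox minus BAM7_Ox, and the 160 lower ones had -0.21. All probe sets had medians of 0.01 for BAM7 and -0.04 for BAM8.

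These counts depended on single arrays and on scaling. With only the groups compared, 532 probe sets were called for BAM7, 407 of them among the 703, and 1 for BAM8. With array weights, the counts were 833 for BAM7 and 752 for BAM8, nearly even. The BAM7 count was 464 and 306 without replicates 1 and 2 of BAM7-N_Ox, and 438 or 374 when 1 of the BAM7_Ox arrays, replicate 1 or replicate 2, was dropped. The BAM8 count was 182 and 200 without replicates 1 and 2 of BAM8-N_Ox, and 213 without BAM8_Ox replicate 2. The balance for BAM8 turned to 181 higher and 200 lower with cyclic loess, to 180 and 265 without BAM8_Ox replicate 1 and to 91 and 122 without BAM8_Ox replicate 2. For BAM7, which was nearly even, it was 246 and 192 without BAM7_Ox replicate 1 and 159 and 215 without BAM7_Ox replicate 2.

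The largest fall in each comparison belonged to a probe set that was high in the other 4 overexpression groups of that protein. Probe set 266914_AT stood at 3.70 and 3.81 in BAM7-N_Ox, against 8.05 and 8.01 in BAM7_Ox, a difference of -4.28 (SE 0.33, adjusted p 4.46e-07). Its mean was 8.49 in BAM7-Cat_Ox, 9.72 in BAM7-Lig_Ox and 10.27 in BAM7-DNA_Ox, so that BAM7-N_Ox was the only BAM7 overexpression group in which it was not high, and its mean there, 3.75, was the lowest of all 14 groups. Probe set 248997_AT stood at 3.85 on each BAM8-N_Ox array, against 9.87 and 10.06 in BAM8_Ox, a difference of -6.11 (69.2-fold, SE 0.21, adjusted p 3.51e-12). Its mean was 8.13 in BAM8-Lig_Ox, 8.54 in BAM8-DNA_Ox and 9.08 in BAM8-Cat_Ox, and again the N line had the lowest mean of all 14 groups. Outside the other 4 overexpression groups of the same protein, the highest mean was 5.80 (BAM8-DNA_Ox) for 266914_AT and 6.02 (bam8) for 248997_AT. Whether these probe sets read the transcripts of BAM7 and BAM8 themselves was not tested. Between the N lines, 248997_AT was higher in BAM7-N_Ox (4.98 and 5.39) than in BAM8-N_Ox by 1.33 (SE 0.21, adjusted p 0.00207), while 266914_AT was not called (-0.36, 95% upper bound 0.33).

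Other named changes against the unsuffixed lines were partly those seen against wild type. For BAM7, 257365_X_AT was higher in the N line by 5.40 (SE 0.30, adjusted p 9.58e-09; BAM7_Ox levels 4.66 and 5.67), 247882_AT by 3.76 (SE 0.24, adjusted p 5.25e-08), and 254862_AT was lower, at -2.52 (adjusted p 1.12e-05). For BAM8, 257365_X_AT was higher in the N line by 2.90 (SE 0.30, adjusted p 2.57e-05; BAM8_Ox levels 4.47 and 4.45). Probe set 266778_AT stood at 5.17 and 5.01 in BAM7-N_Ox and at 6.24 and 6.25 in BAM8-N_Ox, against 4.20 and 4.11 in BAM8_Ox. It rose by 2.09 in BAM8-N_Ox over BAM8_Ox (SE 0.16, adjusted p 7.96e-07), and BAM7-N_Ox minus BAM8-N_Ox was -1.16 (adjusted p 0.000913). Probe set 245171_AT stood at 2.16 and 2.13 in BAM8-N_Ox, against 5.39 and 5.19 in BAM8_Ox (-3.15, SE 0.12, adjusted p 1.63e-11). Its BAM8-N_Ox arrays were no brighter than those of BAM7-N_Ox (2.17 and 2.16) or wild type (2.23 and 2.20), and this level may be background, with -1.43 under the offset of 16. The low level was not particular to the N line, since means were 2.16 in BAM8-DNA_Ox and 2.15 in BAM8-Lig_Ox, against 6.23 in BAM8-Cat_Ox. Fitted to the BAM8-N_Ox and BAM8_Ox arrays alone, 257365_X_AT, 266778_AT and 245171_AT were not called (adjusted p 0.222, 0.118 and 0.118), while 248997_AT was.

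The difference of differences asked whether BAM7-N_Ox and BAM8-N_Ox differ by another amount than BAM7_Ox and BAM8_Ox do. It was called at 125 probe sets (0.55%), 72 with a positive and 53 with a negative value, against 1999 at an unadjusted p under 0.05. Of the 72, 44 were called between the N lines, 22 between the unsuffixed lines, 3 of these in both, and 9 in neither. Of the 53, 22 were called between the N lines, 9 between the unsuffixed lines and 22 in neither. Over all probe sets, 0.813% were called between the N lines and 85 of 22746 between the unsuffixed lines. The median differences were 0.72 between the N lines and -0.42 between the unsuffixed lines over the 72, and -0.60 and 0.49 over the 53. Since these probe sets were chosen on the first difference minus the second, the opposite signs follow from the choice. Calls in either difference are also made more frequent by it, and both are given as a description. The largest positive value was that of 248997_AT (5.85, SE 0.29, adjusted p 2.87e-09), from 1.33 between the N lines and -4.52 between the unsuffixed lines. For 247882_AT it was 4.38 (SE 0.34, adjusted p 1.4e-06), from 2.27 between the N lines and -2.11 between the unsuffixed lines, where BAM7_Ox stood at 5.92 and 5.80 and BAM8_Ox at 8.02 and 7.92. The largest negative value was that of 266914_AT (-3.82, SE 0.46, adjusted p 0.000333), from -0.36 and 3.46. Probe set 247600_AT followed with -2.48 (SE 0.39, adjusted p 0.00526), from levels of 3.19 and 3.57 in BAM7-N_Ox, 4.62 and 4.44 in BAM8-N_Ox, 5.13 and 4.80 in BAM7_Ox and 4.23 and 3.03 in BAM8_Ox, so that the BAM8_Ox replicates were far apart, and it was -1.27 with the offset of 16. The count was 23 when only these 4 groups were fitted, 59 without BAM7-N_Ox replicate 2, 44 without BAM8-N_Ox replicate 1, 68 and 76 when BAM7_Ox replicate 1 or 2 was dropped, and 69 without BAM8_Ox replicate 2.

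**Figure D5:**
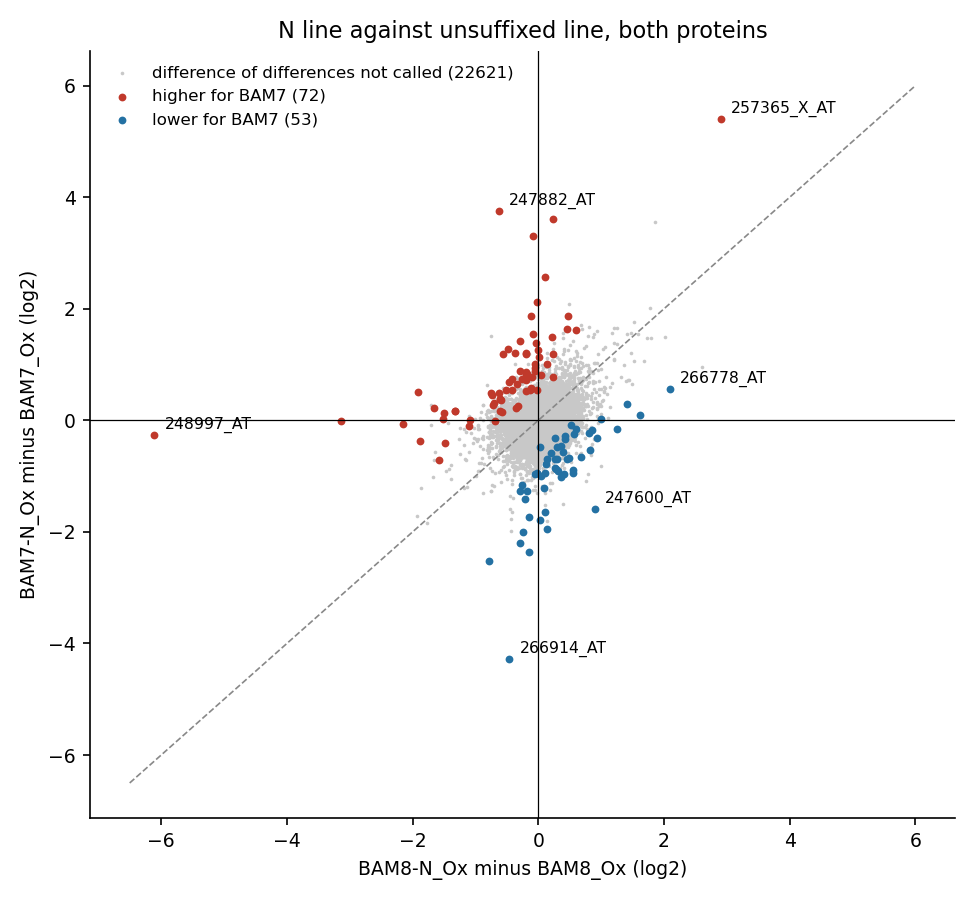
Each point is a probe set, with BAM7-N_Ox minus BAM7_Ox on the y axis and BAM8-N_Ox minus BAM8_Ox on the x axis (log2), and the dashed line marks equal values. The 72 red and 53 blue points are called in the difference of differences. 248997_AT lies at -6.11 on the x axis, 266914_AT at -4.28 on the y axis, and 257365_X_AT is high on both.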

How the data were processed

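Transcript levels were measured on 1 biotin-labelled expression array per sample, each from a pool of 14 shoots. The authors deposited 1 linear intensity value for each probe set on each array. RMA is the tool named, without a version, in the submitters' processing notes, and it combines background correction, quantile normalization and probe set summaries. That these intensity values are the antilog of its log2 output was inferred from their range, 2.89 to 22277. No detection calls were used.

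Values were converted to log2 here. After 1 control probe set was left out, 22746 probe sets were tested, dim ones included. Using limma 3.58.1 (R 4.3.3), all 28 arrays entered a linear model whose terms were the 14 group means, with two-sided tests and 14 residual degrees of freedom (17.7 with those limma adds). A probe set was called at a Benjamini-Hochberg adjusted p under 0.05 within a comparison. An exact permutation test of 2 against 2 arrays cannot go below p = 0.333, so none was run. The fit was tested on simulated data. Figures were drawn with matplotlib 3.10.9.

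Named probe sets are, per comparison and direction, the 2 with the largest difference among those called whose arrays do not overlap (no such condition for the difference of differences). The written rule took 12 and required 1 gene per probe set. Without a table of genes for the probe sets, fewer were named, and the gene lists, tissue markers and promoter letters planned were not run. The comparisons, lists and rules were chosen with earlier results of these data known, and the 5 BAM7 against BAM8 comparisons outside the N lines were added after the data were seen. Replicate numbers did not pair the arrays: over 91 pairs of groups, the replicate differences correlated between -0.38 and 0.43 (median 0.01). Alternatives were a fit that dropped every other group, a filter on the dimmest probe sets (15164 stayed), limma's trend and robust options, the replicate block, quantile and cyclic loess normalization, array weights, leaving out the 1061 probe sets ending in _s_at or _x_at, an offset of 16, leaving out each array compared, and, added later, leaving out BAM7-Cat_Ox.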

Additional observations from a re-analysis of the deposited data

Results flagged for a closer look

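The change from the unsuffixed to the N line differed between BAM7 and BAM8 at 125 probe sets by limma's test of the difference itself. The named ones were 248997_AT at 5.85 and 247882_AT at 4.38, with a larger value for BAM7, and 266914_AT at -3.82 and 247600_AT at -2.48, with a smaller value for BAM7. Of these, 248997_AT was high in the other BAM8 overexpression groups and 266914_AT in the other BAM7 overexpression groups. Whether they read the transcripts of BAM8 and BAM7 themselves was not tested. The values for 248997_AT, 247882_AT and 266914_AT passed in all 18 alternatives, and 247600_AT lost its call in 1, where the other 10 groups were left out of the fit (adjusted p 0.203).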

How the results depend on the processing

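Of the 14 alternatives (18 for the difference of differences), the number within 1.5 times the reported count was 10 of 14 for BAM7-N_Ox against BAM8-N_Ox, 10 and 9 of 14 for BAM7-N_Ox and BAM8-N_Ox against wild type, 10 and 9 of 14 for these lines against BAM7_Ox and BAM8_Ox, and 12 of 18 for the difference of differences. Fitted to only the groups compared, with the spread taken from those arrays alone, the counts were 0, 135, 3, 532, 1 and 23 in that order. Why the loss differed between comparisons was not tested. Array weights gave 468 calls between the N lines, which included all 185, and 752 between BAM8-N_Ox and BAM8_Ox. Leaving out 1 array gave 89 to 148 calls between the N lines, 270 to 991 and 250 to 1469 against wild type, 306 to 464 and 182 to 445 against the unsuffixed lines and 44 to 142 for the difference of differences. The replicate block gave 187 calls between the N lines (175 of them among the 185) and changed no other count by over 1.5 times. No pairing by replicate number common to all groups was seen. Without BAM7-Cat_Ox, the group with the widest replicates, 201 probe sets were called between the N lines, an alternative chosen after seeing the data. None of the 185 changed sign in any alternative that tested it. For most alternatives this was fixed in advance, since the arrays of all 185 did not overlap between the lines. Only quantile and cyclic loess normalization could have changed a sign. The 24 named results kept their call in 336 of 347 alternative values, lost it in 11 and reversed in 0. The same limit on sign changes holds for those named outside the difference of differences, whose arrays also did not overlap. Of the named results between the N lines, 249780_AT ranged from 2.32 to 4.25, 245393_AT from 1.63 to 3.61, 250445_AT from -2.73 to -1.93 and 261339_AT from -2.10 to -0.98, each with its smallest size under the offset of 16.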

Other observations

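The 2 arrays of BAM7-N_Ox held exactly the same value at 100 of 22746 probe sets and those of BAM8-N_Ox at 329, against 29 to 161 in the other groups. Over all probe sets, those with identical values included, replicates had a median difference in size of 0.10 on the log2 scale in each N line. In the other groups it was 0.08 to 0.17.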
